A study of Rattus norvegicus with 12 samples.

Results

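Keratins, the intermediate filament proteins of epithelial cells, were examined in laser-captured bronchi of rats that had inhaled 2,3-pentanedione (PD), a butter flavouring vapour, or filtered air. Every gene whose symbol in the probe annotation has the form Krt followed by a number was taken, which gave 25 of the 14217 genes that had a probe set with a single symbol. Each gene was represented by its probe set of highest mean signal over all arrays. A probe set is the group of array probes that together give a single signal for a transcript, and 24 of the 25 genes had only 1 of them. The genes comprised 5 simple keratins (Krt7, Krt8, Krt18, Krt19 and Krt20), 3 basal keratins (Krt5, Krt14 and Krt15), 2 stress keratins (Krt6c and Krt17), 8 suprabasal keratins, 5 hair keratins and 2 others. By filament type, 14 were type I and 11 were type II. No probe set carried Krt6a or Krt16 as its only symbol, so these stress keratins had no value of their own.

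The animals were male Wistar Han rats, and the exposed ones received 200 ppm PD over 2 weeks. The arrays comprised 6 of control bronchi from air-exposed rats (replicates 1 to 6), 3 of fibrotic bronchi from PD-exposed rats (replicates 3, 7 and 9) and 3 of non-fibrotic bronchi from PD-exposed rats (replicates 4, 8 and 10). Fibrotic specimens held polyps or plaques that projected into the lumen, with the wall beneath them, and non-fibrotic specimens were branches without fibrosis, lined by epithelium of normal or regenerating appearance. Specimens of both kinds came partly from the same exposed rats, but the labels do not tie a specimen to a rat, so the p-values treat them as independent. All specimens were mixtures of epithelium, connective tissue, muscle and adventitia. In such bulk samples, fewer cells of a type and less RNA per cell cannot be told apart.

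Keratins form filaments only as pairs of a type I and a type II chain, and these filaments are anchored to desmosomes between cells and to hemidesmosomes at the basement membrane. Krt8, Krt18, Krt19 and Krt7 are the keratins of simple and secretory epithelium, including the luminal cells of the airway. Krt5, Krt14 and Krt15 are found in basal cells, while Krt6, Krt16 and Krt17 are induced in many epithelia after injury.

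Sequence just upstream of the start was available for 17 of the 25 genes in RefSeq's tables of the rat build GRCr8, as 19 windows of 250 bases. The windows of 4 genes are given 5′ to 3′ because they stand for the classes described here: Krt6c for stress keratins, Krt5 for basal keratins, and Krt8 with Krt18 for the filament pair of simple epithelium. Capitals mark a match, on either strand, to a TATA box (TATAAA), an AP-1 site (TGANTCA) or a GC box (GGGCGG).

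Krt6c, chr7:134682754-134683003 (minus strand): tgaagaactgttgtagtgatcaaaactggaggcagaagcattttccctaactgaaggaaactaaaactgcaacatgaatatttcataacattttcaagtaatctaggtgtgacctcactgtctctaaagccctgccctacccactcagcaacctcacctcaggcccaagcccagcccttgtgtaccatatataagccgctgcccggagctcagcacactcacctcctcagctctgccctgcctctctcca

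Krt5, chr7:134730570-134730819 (minus strand): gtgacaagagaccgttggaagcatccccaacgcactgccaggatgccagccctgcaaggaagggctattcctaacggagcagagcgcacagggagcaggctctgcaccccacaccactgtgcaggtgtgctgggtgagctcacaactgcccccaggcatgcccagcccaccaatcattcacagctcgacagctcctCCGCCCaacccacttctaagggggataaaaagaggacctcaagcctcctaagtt

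Krt8, chr7:135010340-135010589 (minus strand): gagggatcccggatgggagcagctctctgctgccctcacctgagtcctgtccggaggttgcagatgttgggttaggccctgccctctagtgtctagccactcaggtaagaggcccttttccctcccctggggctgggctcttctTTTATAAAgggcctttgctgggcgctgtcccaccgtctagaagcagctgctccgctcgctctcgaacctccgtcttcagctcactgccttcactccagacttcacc

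Krt18, chr7:135035918-135036167 (plus strand): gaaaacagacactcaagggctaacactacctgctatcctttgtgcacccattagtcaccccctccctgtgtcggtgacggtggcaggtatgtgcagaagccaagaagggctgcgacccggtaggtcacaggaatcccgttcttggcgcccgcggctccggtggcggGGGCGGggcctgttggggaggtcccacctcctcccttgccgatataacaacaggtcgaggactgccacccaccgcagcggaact

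The TATAAA letters occurred in 8 of the 19 keratin windows (42.1%), against 12.9% of all 33469 windows in the table. Krt8 held them on both strands, in matches that overlap at 106 and 104 bases before the start. GGGCGG occurred in 2 keratin windows, those of Krt18 and Krt5 (10.5% against 30.5% of all windows), and lay 84 and 54 bases before their starts. TGANTCA occurred in 1 window (5.26% against 6.34% of all windows), that of Krt4. The Krt6c window held none of these motifs as spelled. A match of letters describes the sequence and does not mark a bound site.

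The values are microarray signals on a log2 scale. Transcripts of bacterial genes that were not added to the samples gave 84 values, the highest of which was 6.52, and a signal below 6.52 was regarded as indistinguishable from an absent transcript. By this measure 6 keratins (Krt7, Krt8, Krt15, Krt18, Krt19 and Krt23) were present on every array and 4 (Krt12, Krt24, Krt36 and Krt90) on none. The number of keratins above the absent level was 7 to 11 on control arrays, 12 to 17 on non-fibrotic arrays and 12 to 16 on fibrotic arrays, so that every exposed array showed more keratins than any control array. The share of all probe sets above the same level was 61.0 to 64.5% on control arrays and 59.98 to 70.6% on exposed arrays, and it was highest on non-fibrotic replicates 10 (70.6%) and 4 (67.1%) and fibrotic replicate 9 (69.9%), the arrays with the most keratins (17, 16 and 16). The count of keratins was not tested.

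**Figure D1:**
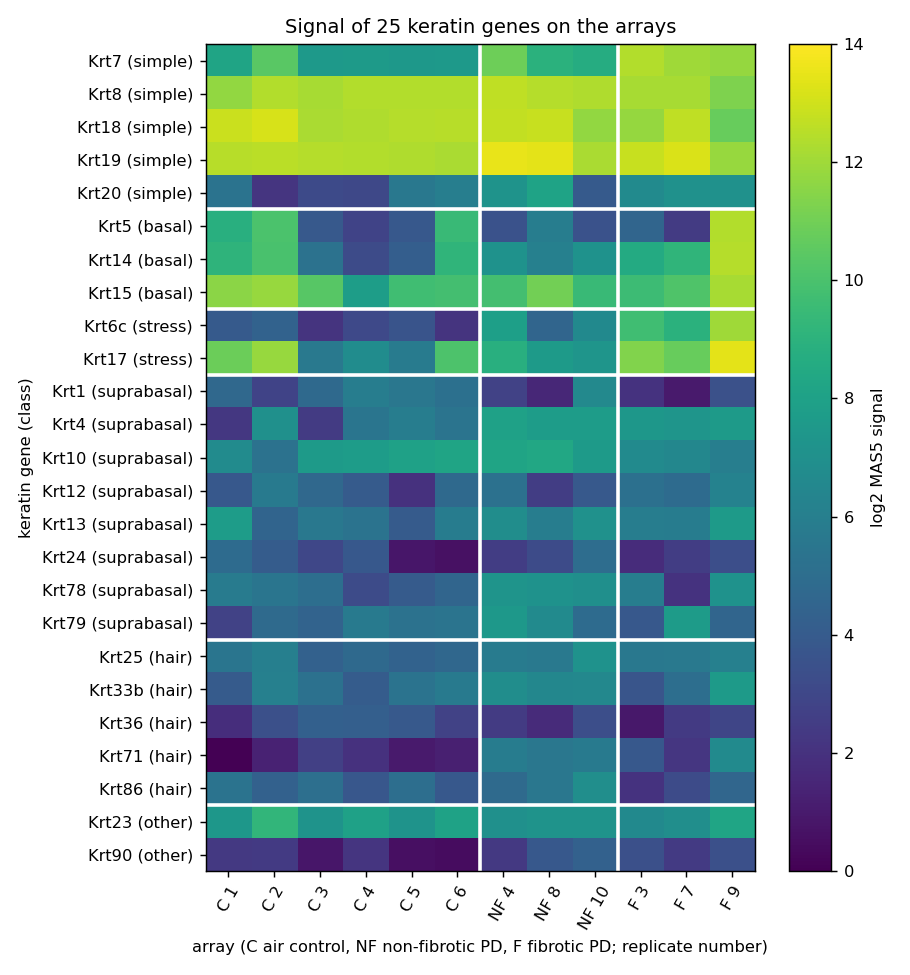
The colour gives the log2 signal of each of the 25 keratin genes (rows, ordered by class) on each of the 12 arrays (columns; C control, NF non-fibrotic, F fibrotic, with the replicate number). Krt8, Krt18 and Krt19 were bright on every array, Krt7 and Krt6c were brightest on the fibrotic arrays, Krt5, Krt14 and Krt17 were bright on controls 1, 2 and 6 and dim on controls 3, 4 and 5, and most hair keratins stayed dark.

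In fibrotic bronchi, 2 of the 25 keratins rose relative to controls and none fell. These were Krt6c and Krt7, called at an adjusted p below 0.01 by limma with Benjamini-Hochberg adjustment over 31042 probe sets. Of all probe sets tested, 9.39% were called in this comparison (2.99% rose and 6.4% fell), so that 2 of 25, or 8.0%, is close to the background. Counted by gene, each by its probe set of highest mean signal, 587 of the 14217 genes rose and 1192 fell. At an unadjusted p below 0.05, 9 of the 25 keratins were counted, against 31.9% of all probe sets. Of these 9, Krt1 was below the absent level on every array of both groups. Krt71 exceeded it on fibrotic replicate 9 alone, at 6.72. The median difference over the 25 keratins was 0.47 on the log2 scale, against 0.10 over all genes. With values below the absent level raised to it, these medians were 0.17 and 0.00. The groups did not overlap for 5 keratins (20.0%), against 23.6% of all probe sets (12.3% higher and 11.3% lower).

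Krt6c, a type II stress keratin of injured and proliferating epithelium, was within the range of absent transcripts in controls and bright in fibrotic bronchi. Its control signals had a lowest value of 2.09, a median of 3.34 and a highest value of 4.39. The non-fibrotic arrays gave 7.90, 4.58 and 6.63 for replicates 4, 8 and 10. The fibrotic arrays gave 9.68, 8.97 and 12.02 for replicates 3, 7 and 9. On this probe set the 3 groups stood in order without overlap. No control array reached the absent level, whereas every fibrotic array exceeded it, and non-fibrotic replicate 8 was below it. The fitted difference between fibrotic and control bronchi was 7.02 ± 0.84 (log2, SE; n = 3 and 6; limma adjusted p = 2.67e-05). Since the control values lay within the range of absent transcripts, the rise was bounded as at least 13.1-fold. Against controls, non-fibrotic bronchi differed by 3.17 (adjusted p = 0.0393), and fibrotic bronchi differed from non-fibrotic bronchi by 3.86 (adjusted p = 0.0193). Neither passed the threshold of 0.01. With values below the absent level raised to it, these differences were 0.50 and 3.21.

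Krt6c was the only keratin with several probe sets. The second of its 3 probe sets also rose in fibrotic bronchi, by 7.72 (log2, SE 1.11, limma adjusted p = 1.56e-04). The third differed by 3.52 (SE 0.94, adjusted p = 0.0156) and exceeded the absent level only on the fibrotic replicate 3 array, at 6.58. Between non-fibrotic and control bronchi the second differed by 2.38 (limma adjusted p = 0.186) and the third by 0.43 (adjusted p = 0.802). For both, these groups overlapped and all their values were below the absent level. RefSeq lists Krt6a both as an older name of Krt6c and as a separate near neighbour on the same chromosome, with 2 Krt6a pseudogenes nearby, so the share of this signal that belongs to each copy is uncertain.

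Krt7 is the type II keratin of ductal and glandular simple epithelium. Control arrays had a lowest value of 7.49, a median of 7.59 and a highest value of 10.43, the last on control 2. Non-fibrotic arrays gave 10.90, 8.96 and 8.66 (replicates 4, 8 and 10). Fibrotic arrays gave 12.36, 11.998 and 11.76 (replicates 3, 7 and 9). All fibrotic arrays were above all others, while the non-fibrotic arrays overlapped the controls through control 2. The rise in fibrotic bronchi was 3.91 ± 0.59 (log2, SE; limma adjusted p = 2.45e-04), or 15.1-fold. Fibrotic bronchi differed from non-fibrotic bronchi by 2.53 ± 0.69 (adjusted p = 0.029), and non-fibrotic bronchi from controls by 1.38 ± 0.59 (adjusted p = 0.153).

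The controls were labelled in 2 forms, one shared by controls 1 and 2 with the exposed arrays and the other used for controls 3 to 6. Spiked poly-A controls averaged 2.32 (log2) on controls 1 and 2, against 9.99 to 10.63 on controls 3 to 6 and 8.02 to 11.06 on exposed arrays. The signal at the 3′ end of Gapdh exceeded that at the 5′ end by 0.70 to 0.90 on controls 3 to 6, 1.16 and 2.03 on controls 1 and 2, and 1.59 to 2.35 on exposed arrays, which is a measure of RNA integrity. Against controls 1 and 2 only, the difference of Krt7 was 2.75 (adjusted p = 0.0403), no longer below 0.01, and against controls 3 to 6 only it was 4.50. For Krt6c the same differences were 6.06 (adjusted p = 0.00606) and 7.51, both below the threshold. The part of these array features in the keratin differences was not tested further.

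**Figure D2:**
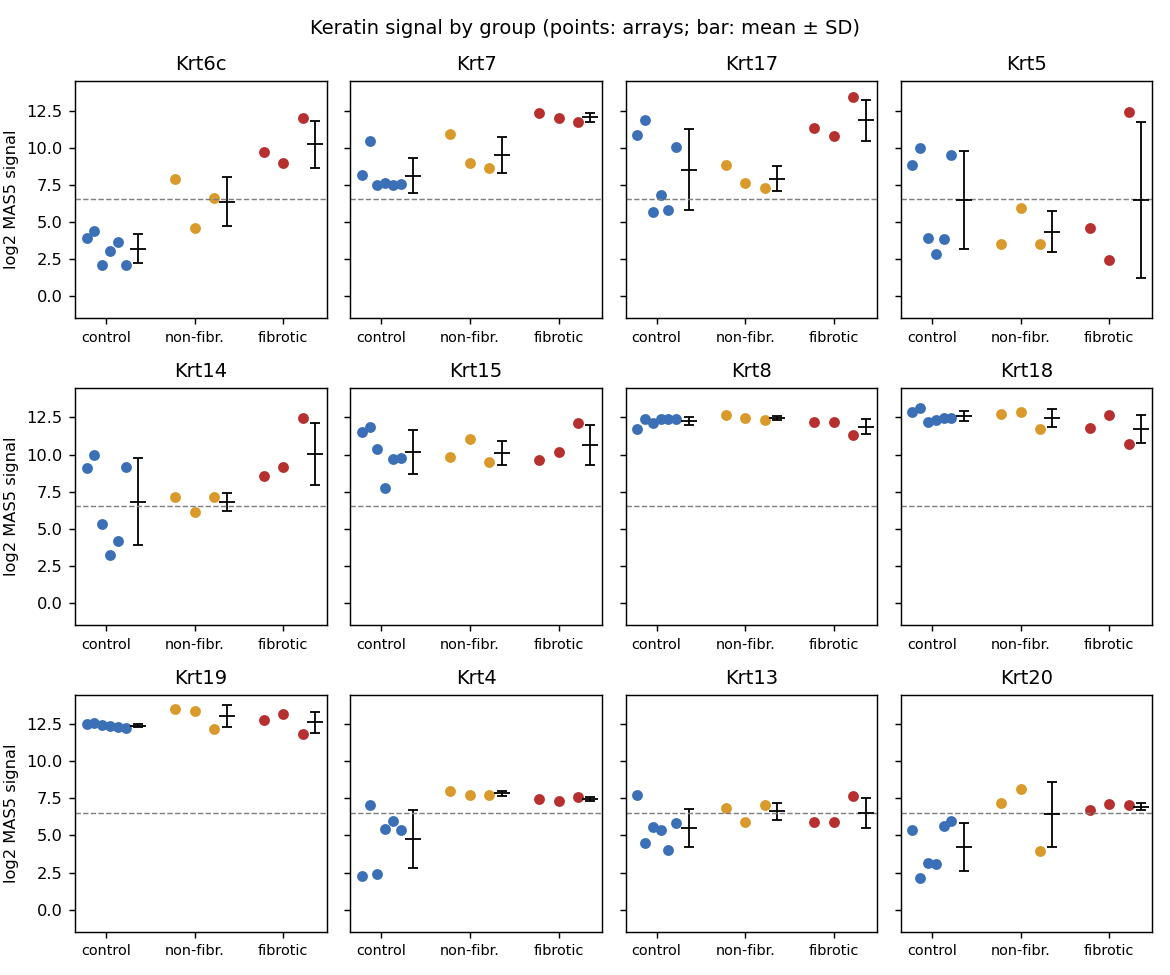
Each panel shows the log2 signal of a keratin by group (points are arrays; the bar is the group mean ± SD; the dashed line at 6.52 is the highest value of absent transcripts). Krt6c and Krt7 were higher on all 3 fibrotic arrays than on any control, whereas the Krt5, Krt14 and Krt17 controls were widely spread.

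Among the other simple keratins, none passed the test in any comparison. Krt8, the type II partner of Krt18, lay between 11.72 and 12.39 in controls (median 12.37). Non-fibrotic replicates 4, 8 and 10 gave 12.64, 12.45 and 12.31, and fibrotic replicates 3, 7 and 9 gave 12.19, 12.18 and 11.29. Fibrotic and control values overlapped, and the difference of -0.35 ± 0.22 (log2, SE) had a 95% interval of -0.81 to 0.12 (limma adjusted p = 0.302). Krt18, the type I partner, lay between 12.20 and 13.15 in controls (median 12.47). Non-fibrotic arrays gave 12.73, 12.84 and 11.75, and fibrotic arrays 11.76, 12.64 and 10.73. The groups overlapped, with a difference of -0.87 ± 0.34 and an interval of -1.60 to -0.14 before adjustment (adjusted p = 0.0921). Fibrotic replicate 9 was lowest for both chains of the pair, and without it the differences were -0.047 for Krt8 and -0.38 for Krt18.

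Krt19, a small type I keratin of simple and regenerating epithelium, was the most uniform of the named keratins in controls, between 12.25 and 12.57 (median 12.41). Non-fibrotic arrays gave 13.53, 13.42 and 12.21, and fibrotic arrays 12.81, 13.22 and 11.83. Both exposed groups spread on either side of the controls. The fibrotic difference was 0.21 (interval -0.41 to 0.83, adjusted p = 0.669) and the non-fibrotic difference was 0.64 (interval 0.02 to 1.26, adjusted p = 0.177). Krt20, best known from intestinal and urothelial epithelium, was below the absent level on all controls, at 2.14 to 6.01. It gave 6.69, 7.10 and 7.06 on the fibrotic arrays and 7.18, 8.15 and 3.94 on the non-fibrotic arrays. The fibrotic arrays lay just above the absent level, and the difference did not pass the test (2.73 ± 0.98, adjusted p = 0.0657). With values below the absent level raised to it, this difference was 0.43.

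The basal keratins did not pass the test in any comparison, and the controls of Krt5 and Krt14 were the most scattered of the named keratins. Krt5, the type II chain of basal cells, gave 8.83, 10.01 and 9.51 on controls 1, 2 and 6. On controls 3, 4 and 5 it gave 3.89, 2.81 and 3.84. The first set was clearly above the absent level and the second was below it. Non-fibrotic replicates 4, 8 and 10 gave 3.52, 5.94 and 3.54, and fibrotic replicates 3, 7 and 9 gave 4.59, 2.44 and 12.41. Thus Krt5 was above the absent level on 1 of the 6 exposed arrays, fibrotic replicate 9, and on 3 of the 6 control arrays. The mean difference between fibrotic and control bronchi was -0.01, with an interval from -4.13 to 4.12 (limma adjusted p = 0.998), and the spread between arrays leaves its direction undetermined.

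Krt14, the type I partner of Krt5, gave 9.12, 9.96, 5.29, 3.22, 4.17 and 9.17 on controls 1 to 6. Non-fibrotic arrays gave 7.11, 6.10 and 7.15, and fibrotic arrays gave 8.56, 9.17 and 12.45. Controls 1, 2 and 6 were again the high ones and reached into the fibrotic range. On fibrotic replicates 3 and 7 Krt14 was above the absent level while its partner Krt5 was not. The fibrotic difference was 3.24 ± 1.32 (adjusted p = 0.104). Krt15, a type I keratin of basal cells, was present on every array, from 7.78 to 11.86 in controls (median 10.08). It gave 9.83, 11.03 and 9.46 on the non-fibrotic arrays and 9.62, 10.16 and 12.15 on the fibrotic arrays. The groups overlapped, with a fibrotic difference of 0.47 ± 0.73 (adjusted p = 0.701).

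Krt17, the type I stress keratin, followed the pattern of Krt14 across the controls, with 10.83, 11.85, 5.68, 6.81, 5.83 and 10.07 on controls 1 to 6. Non-fibrotic arrays gave 8.85, 7.62 and 7.29. Fibrotic arrays gave 11.34, 10.76 and 13.43. The fibrotic arrays were all above the non-fibrotic ones but overlapped controls 1 and 2. The fibrotic difference was 3.33 ± 1.18 against controls (adjusted p = 0.0619) and 3.92 ± 1.36 against non-fibrotic bronchi (adjusted p = 0.0849). The choice of controls decided this result, since the difference was 4.75 (adjusted p = 0.00268) against controls 3 to 6 and 0.50 (adjusted p = 0.782) against controls 1 and 2. For Krt14 the same differences were 4.59 (adjusted p = 0.0155) and 0.52 (adjusted p = 0.835).

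Suprabasal keratins, which are typical of stratified and keratinizing epithelium, were mostly near or below the absent level, and none of the 8 passed the test in any comparison. Krt4, the type II chain of stratified mucosa, gave control values from 2.27 to 7.03 (median 5.39). Non-fibrotic arrays gave 8.03, 7.74 and 7.73, and fibrotic arrays 7.43, 7.32 and 7.61. All 6 exposed arrays were above every control, and control 2 alone of the controls exceeded the absent level. The differences were 2.71 ± 0.89 in fibrotic bronchi (adjusted p = 0.0447) and 3.09 ± 0.89 in non-fibrotic bronchi (adjusted p = 0.0508). With values below the absent level raised to it, they were 0.85 and 1.23. Krt13, the type I partner of Krt4, ranged from 4.04 to 7.76 in controls (median 5.47), from 5.94 to 7.07 in non-fibrotic bronchi and from 5.90 to 7.65 in fibrotic bronchi, and the groups overlapped (fibrotic difference 0.97, adjusted p = 0.392).

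Krt10, the type I keratin of cornifying epidermis, had the highest signal of this class. It gave 5.25 to 8.16 in controls (median 7.69), 8.18, 8.40 and 7.61 in non-fibrotic bronchi and 6.72, 6.46 and 5.98 in fibrotic bronchi. Every fibrotic array was below every non-fibrotic array, but the difference of -1.68 ± 0.66 did not pass the test (adjusted p = 0.128). Krt1, its type II partner, exceeded the absent level on 1 array, non-fibrotic replicate 10, at 6.57. Krt78 was below the absent level on all controls (at most 5.80) and above it on all non-fibrotic arrays (6.98 to 7.22, difference 2.43 ± 0.91, adjusted p = 0.109). With values below the absent level raised to it, this difference was 0.59.

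The hair keratins were at or below the absent level on most arrays. None of the 5 exceeded it on a control array. Krt33b, the hair keratin of highest mean signal, lay between 4.00 and 6.09 in controls (median 5.29). It gave 6.85, 6.50 and 6.55 on the non-fibrotic arrays and 3.67, 5.07 and 7.64 on the fibrotic arrays. Its non-fibrotic values straddled the absent level above all controls, with a difference of 1.55 ± 0.78 (adjusted p = 0.215). With values below the absent level raised to it, this difference was 0.12. Krt71, of the inner root sheath, had a fitted non-fibrotic difference of 4.41 ± 0.93 (adjusted p = 0.019). All its control values, from -0.43 to 2.64, and all its non-fibrotic values, from 5.53 to 5.89, lay within the range of absent transcripts, so no fold is given, and with values raised to the absent level the difference was 0.00. Probe sets that carried several hair keratin symbols, 2 in number, were not assigned to a gene. Of the keratins of other classes, Krt23 was present on every array, at 7.21 to 9.22 in controls, 7.03 to 7.20 in non-fibrotic bronchi and 6.63 to 8.24 in fibrotic bronchi, and did not pass the test.

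In non-fibrotic bronchi compared with controls, none of the 25 keratins passed the limma test, where 0.522% of all probe sets did (0.164% rose and 0.358% fell), and 9 of the 25 had an unadjusted p below 0.05, against 26.4% of all probe sets. Of these 9, Krt71 and Krt90 were below the absent level on every array of both groups. The groups did not overlap for 6 keratins, or 24.0%, against 14.6% of all probe sets (9.23% higher and 5.42% lower). These were Krt4, Krt6c, Krt23, Krt33b, Krt71 and Krt78, and apart from Krt23 the non-fibrotic arrays were the higher ones. The median difference was 0.81 (log2), against 0.00 over all genes, but 0.088 against 0.00 with values below the absent level raised to it. In fibrotic compared with non-fibrotic bronchi none of the 25 was called, against 3.82% of all probe sets (1.07% rose and 2.75% fell), and 7 (28.0%) had an unadjusted p below 0.05, against 23.2% of all probe sets. Counted by gene, 209 of the 14217 genes rose and 544 fell in this comparison. The groups did not overlap for 8 keratins (32.0%), against 23.1% of all probe sets (10.9% higher and 12.2% lower). The comparisons with controls share the same 6 control arrays and are therefore not independent of each other.

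**Figure D3:**
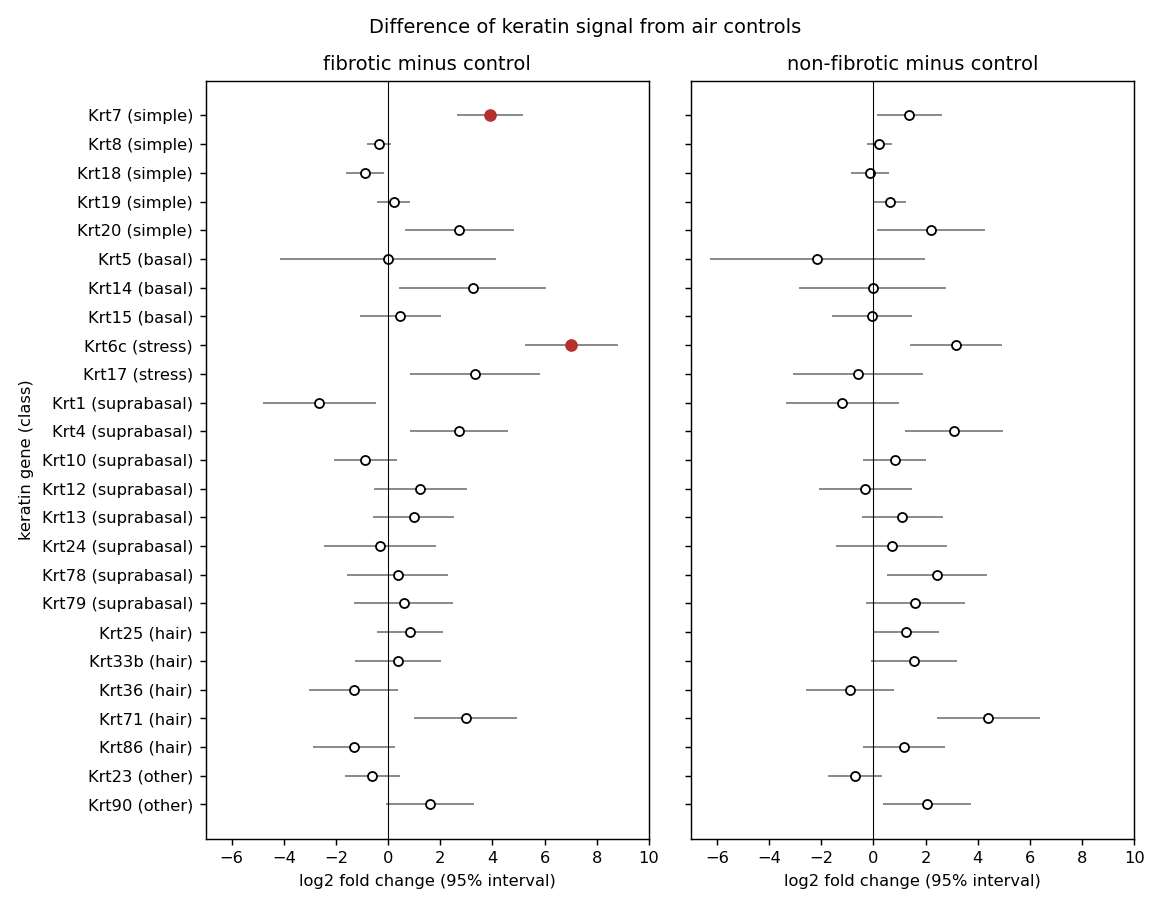
Points give the log2 fold change of each keratin relative to air controls, on the left for fibrotic bronchi and on the right for non-fibrotic bronchi, with 95% intervals from limma before adjustment for multiple tests; filled points were called at an adjusted p below 0.01. Krt6c (7.02) and Krt7 (3.91) were called on the left and none on the right; differences of keratins below the absent level, such as Krt71, are not measures of expression.

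Markers of other cells moved with the fibrotic group, in which 2.99% of all probe sets rose and 6.4% fell relative to controls. Of 17 measured epithelial genes that are not keratins, 9 fell in fibrotic bronchi and none rose, with a median difference of -1.55 (log2). Their mean signal was 10.36 to 10.90 in controls, 10.55 to 10.97 in non-fibrotic bronchi and 9.22 to 9.80 in fibrotic bronchi. Cdh1, the adhesion molecule of epithelial junctions, fell by 1.25 (limma adjusted p = 5.19e-05), whereas Epcam, a pan-epithelial surface protein, differed by -0.66 (adjusted p = 0.0643). All 11 measured ciliated cell genes fell, including Foxj1, the master regulator of motile cilia, by 4.72 (adjusted p = 6.27e-08). Of 12 club cell genes 10 fell, including Scgb1a1, the main club cell secretory protein, by 1.59 (adjusted p = 0.00151).

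Of 8 measured basal cell genes that are not keratins, 2 rose in fibrotic bronchi and none fell, and the mean signal of the list was 5.53 to 7.78 in controls, 5.88 to 7.97 in non-fibrotic bronchi and 8.45 to 9.14 in fibrotic bronchi. Trp63, the defining transcription factor of basal cells, was not among the genes measured. Of 10 fibroblast genes 4 rose, of 12 macrophage genes 6 rose, and of 6 mesothelial genes 1 rose, and none of these fell. Mesothelial cells also express simple keratins, and the mean of their markers was 6.80 to 7.65 in controls and 7.58 to 9.21 in fibrotic bronchi. Of 14 genes of cornified keratinocytes 2 rose and 1 fell, and 5 were below the absent level on every array. Over all probe sets 2.99% rose and 6.4% fell, and the counts of these short lists were not tested against those shares. Whether these cell types contributed to the keratin differences was not tested.

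Since epithelial genes as a whole were lower in fibrotic bronchi, 10 keratins of airway and stratified epithelium were also measured relative to the mean of the 17 epithelial markers on the same array. Krt6c was not among these 10, because the set named Krt6a, which had no value of its own. On this scale Krt7 was 2.15 to 3.15 in fibrotic bronchi and -3.36 to -0.40 in controls, a difference of 5.14 (log2). Krt8 was 1.68 to 2.98 in fibrotic bronchi and 1.36 to 1.56 in controls (difference 0.88), and Krt19 was 2.22 to 3.60 and 1.37 to 2.15 (difference 1.43). Krt4 was -2.47 to -1.79 and -8.33 to -3.79 (difference 3.93), but all controls except control 2 were below the absent level for it. With values raised to that level, the Krt4 difference before this scaling was 0.85 rather than 2.71. For these 4 keratins the groups did not overlap, and each gave an exact two-sided permutation p of 0.0119, the smallest possible among the 84 ways to divide the arrays. After adjustment over all 30 tests (10 keratins in 3 comparisons) this became 0.0893, and none passed 0.05. Krt14 (difference 4.46, exact p = 0.0238) and Krt17 (difference 4.55, exact p = 0.0357) had adjusted values of 0.143 and 0.179. Krt14 was below the absent level on controls 3, 4 and 5, and Krt17 on controls 3 and 5. Krt18 differed by 0.35 (exact p = 0.429, adjusted p = 0.536). The comparison of 3 fibrotic with 3 non-fibrotic arrays cannot give an exact p below 0.1.

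**Figure D4:**
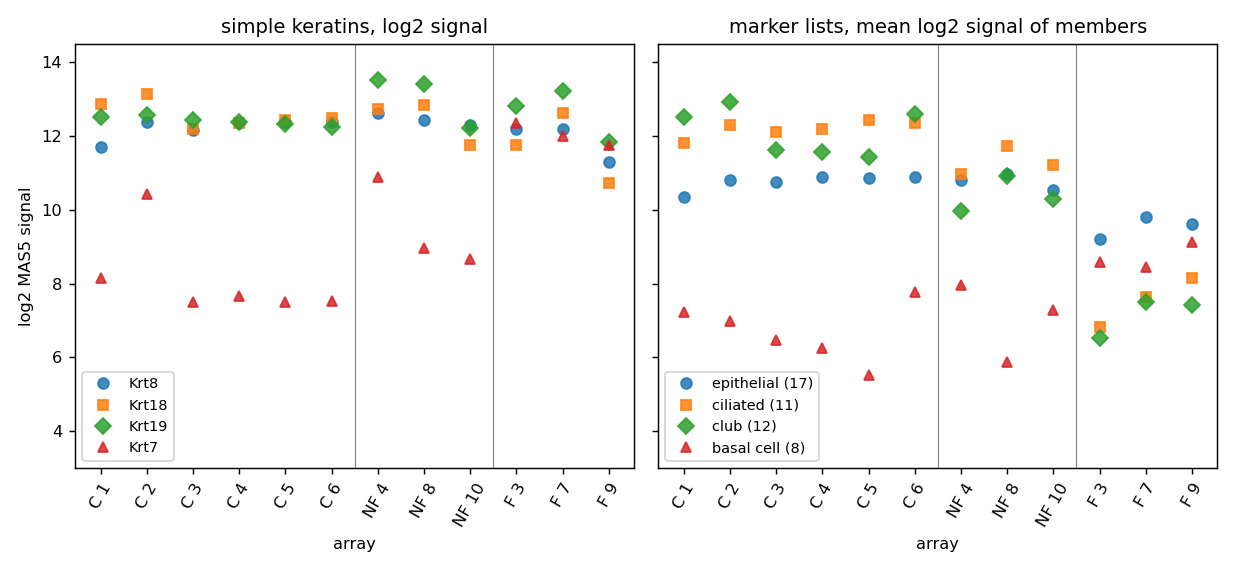
Left, the log2 signal of 4 simple keratins on each array; right, the mean log2 signal of the measured members of 4 marker lists on the same arrays (numbers of genes in parentheses; C control, NF non-fibrotic, F fibrotic). Krt8, Krt18 and Krt19 stayed between 10.73 and 13.53 on all arrays while the mean of the ciliated list lay between 11.81 and 12.44 in controls and between 6.82 and 8.17 in fibrotic bronchi.

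Transcripts of proteins that anchor or crosslink keratin filaments were also measured. Of 25 measured filament partner genes, 4 rose and 3 fell in fibrotic bronchi (28.0%, against 9.39% of all probe sets). Counted by gene, 587 of the 14217 genes rose and 1192 fell. The median difference of the partner genes was -0.25 (log2), and 2 of them were below the absent level on every array. Tgm1, the transglutaminase that crosslinks proteins of the cornified envelope, gave 10.14, 10.46 and 8.81 on fibrotic replicates 3, 7 and 9 and 0.17 to 7.32 in controls. All fibrotic arrays were higher than all controls (difference 6.47 ± 1.24, limma adjusted p = 0.00179), and with values below the absent level raised to it the difference was 3.15. Itga6, an integrin chain of hemidesmosomes, gave 11.48, 11.32 and 11.72 against 9.23 to 9.93 in controls, without overlap (difference 1.81 ± 0.35, adjusted p = 0.00203). It rose above non-fibrotic bronchi too, by 2.08 (adjusted p = 0.0045).

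Perp, a desmosomal membrane protein, fell by 1.59 (adjusted p = 0.00275), and Tchp, the keratin-binding protein trichoplein, fell by 1.32 (adjusted p = 0.006). Desmoplakin (Dsp), which links desmosomes to keratin filaments, differed by -1.78 and missed the threshold (adjusted p = 0.0122). The desmosomal cadherins Dsg2 (1.28, adjusted p = 0.00714) and Dsc2 (1.76, adjusted p = 0.00703) rose, and periplakin (Ppl), a filament linker, fell by 1.63 (adjusted p = 0.0085). Dsg2, Dsc2 and Ppl were named after their values were seen. Dsg3 was not among the genes measured.

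Of 15 genes of other intermediate filaments, 2 rose and none fell in fibrotic bronchi, where 2.99% of all probe sets rose and 6.4% fell. Vim, the filament of mesenchymal cells, gave 13.88, 14.12 and 13.68 on the fibrotic arrays and 11.59 to 12.97 in controls, without overlap (difference 1.78 ± 0.27, limma adjusted p = 2.76e-04). Nes, a filament of progenitor and endothelial cells, gave 8.77, 8.82 and 8.48 against 2.77 to 6.04 (difference 3.58 ± 0.63, adjusted p = 8.63e-04), a rise of at least 4.52-fold because all controls were below the absent level. Synm, a filament of muscle, differed by -2.22 (adjusted p = 0.0118), and Lmna, the nuclear lamin A/C, by 1.09 (adjusted p = 0.0242). Over both lists 9 of the 40 genes were called in fibrotic bronchi, against 9.39% of all probe sets, and 3 were called without fibrotic replicate 3. In non-fibrotic bronchi compared with controls, none of these 40 partner and filament genes passed the test, and 11 (27.5%) had an unadjusted p below 0.05, against 26.4% of all probe sets.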

How the data were processed

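Bronchial tissue was captured by laser, and its RNA was amplified and hybridized to Affymetrix rat arrays, whose probe set identifiers are those of a 3′ expression array. The deposited intensity values are signals that the authors made with the MAS5 algorithm in AGCC, on a linear scale. Their 2% trimmed mean was 500.1 to 500.2 on every array, so between-array scaling had already been applied. Signals were converted to log2 without offset. Control probe sets (57 of 31099) were left out, and 31042 were tested with limma 3.58.1 in R 4.3.3 (3 groups in one fit, trend in intensity, Benjamini-Hochberg, called at an adjusted p below 0.01). Of these, 20826 carried 1 symbol, 436 several and 9780 none. The fit was tested on simulated data, with 50 probe sets shifted by each amount in each comparison. At the threshold of 0.01 it recovered 20 to 42% of log2 shifts of 2 and 54 to 68% of shifts of 3. It recovered 60 to 86% of shifts of 4 and 92 to 98% of shifts of 6. Many simulated shifts of 2 or 3 were therefore missed.

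Values are given in full for called keratins, for the keratin of highest signal in each class and for the common epithelial keratins, while for partner and filament lists the 4 genes with the smallest p and Vim and Dsp are named. The members and gene lists were chosen with earlier results of these data known. Keratins relative to epithelial markers were compared by exact two-sided permutation. Array number limits the precision. Where every array of a group was below the absent level, a fold is a bound. Alternatives covered thresholds, filters, scaling, weights, probe sets, control sets and leaving out each array.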

Additional observations from a re-analysis of the deposited data

Results flagged for a closer look

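Control 2 stood apart from the other controls for Krt7, at a log2 signal of 10.43, and control 1 stood apart for Krt8, at 11.72, by Dixon's test at the 95% level. About 1 group in 20 is marked by chance in such a test. Both arrays belong to the set with low poly-A control signals. Without control 2 the fibrotic difference of Krt7 was 4.37 (log2).

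For Krt8 and Krt10, every fibrotic array lay below the control mean and every non-fibrotic array lay above it. None of these differences passed the test, and all groups overlapped the controls. Mean differences of opposite sign in the exposed groups also occurred for other keratins, among them Krt14, Krt15 and Krt17. Krt8 differed by -0.35 in fibrotic (limma adjusted p = 0.302) and 0.23 in non-fibrotic bronchi (adjusted p = 0.529). Krt10 differed by -0.87 (adjusted p = 0.311) and 0.81 (adjusted p = 0.380). Neither was called in fibrotic compared with non-fibrotic bronchi, where limma gave adjusted p = 0.184 for Krt8 and 0.128 for Krt10.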

How the results depend on the processing

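No paired analysis was possible because the labels do not tie a specimen to a rat. In fibrotic against control bronchi, the count of 2 called keratins (Krt6c, Krt7) was 4 at an adjusted p below 0.05 (with Krt4 and Krt71), 1 with the dimmest 40% of probe sets dropped (which removed Krt6c), and 1 with controls 1 and 2 only or with a fixed block for the sets of arrays, an alternative chosen after seeing the data (Krt7 lost). It was 2 without any single array. In non-fibrotic against control bronchi the count of 0 became 2 at 0.05 (Krt6c and Krt71) and 1 at p below 0.001 with over 2-fold (Krt71). Krt71 was below the absent level on every array of both groups. In fibrotic against non-fibrotic bronchi the count of 0 became 2 at 0.05 (Krt6c and Krt7). The count was 1 each with a pseudocount of 16 (Krt6c), with only those groups fitted (Krt17) and with the mean of probe sets (Krt6c). It was 0 to 2 on leaving out an array (1 without control 2, 2 without non-fibrotic replicate 4). No keratin relative to epithelial markers passed 0.05 after adjustment under any alternative, but some of these tests could not have passed. In fibrotic against non-fibrotic bronchi the exact permutation p cannot fall below 0.1. On leaving out a fibrotic array, the lowest exact p against controls was 0.0357, the smallest possible with the arrays left. This is too large to pass after adjustment over all 30 tests. The unchanged counts of these tests are therefore not evidence of stability. The 9 called partner and filament genes became 17 at 0.05 and 3 to 13 on leaving out an array, with 3 without fibrotic replicate 3, 4 without fibrotic replicate 7 and 5 without control 4, 5 or 6. The cause of these shifts was not tested.

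Uncalled differences of 10 of the 33 named keratin comparisons changed sign under some alternative. Their reported values lay between -0.59 and 0.53, except for Krt5 in fibrotic against non-fibrotic bronchi (2.15), which turned to -0.82 without fibrotic replicate 9. Krt5 in fibrotic against control bronchi was 0.24 with a floor or with a pseudocount, 0.30 with quantile normalization, 0.061 with median centring, 1.11 with array weights, 1.46 with controls 3 to 6, and -2.97 to 2.01 on leaving out an array. With array weights and with controls 3 to 6, the non-fibrotic differences from control were 1.33 and 1.32 for Krt14, 0.45 and 0.71 for Krt15, and 0.71 and 0.82 for Krt17, and that of Krt18 was 0.067 with controls 3 to 6. Krt15 in fibrotic against control bronchi was -1.06 with controls 1 and 2 or the fixed block. Krt13 in fibrotic against non-fibrotic bronchi was 0.089 with quantile normalization. On leaving out an array, differences ran from -0.82 to 4.17 for Krt5 and -0.71 to 0.17 for Krt13 and -0.22 to 1.04 for Krt15 (fibrotic against non-fibrotic), from -0.75 to 0.59 for Krt14, -0.54 to 0.28 for Krt15, -1.16 to 0.075 for Krt17 and -0.35 to 0.20 for Krt18 (non-fibrotic against control), and from -0.28 to 0.98 for Krt15 and -0.092 to 0.60 for Krt19 (fibrotic against control). Signals near the absent level limit the dim keratins.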
